A study of Mus musculus with 4 samples.

Results

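The genes described here encode the subunits of the transcription factor NF-kappaB and its inhibitors, the IkappaB proteins. They were chosen by name, as a list of 10 genes, and 9 of them were measured here, each by a single probe set, among 19938 genes in all. Nfkb1 was not analysed here. RNA of bone marrow cells (strain C57BL/6N) was measured on 1 Affymetrix Mouse Gene 1.0 ST array per sample. The LPS group (2 arrays, replicates 1 and 2) had received a single intraperitoneal dose of 50 µg lipopolysaccharide, an outer membrane glycolipid of Gram-negative bacteria, prepared in equal parts from E. coli K12 and S. minnesota. The PBS group (2 arrays, replicates 1 and 3) had received phosphate-buffered saline, and marrow of both groups was taken 8 h after the injection. The labels give neither age nor sex, and they do not say whether a sample was 1 mouse or a pool. The spread between arrays of a group may therefore be partly technical, and p-values measure only that spread.

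NF-kappaB subunits bind DNA as dimers. In resting cells most dimers are held in the cytoplasm by the classical inhibitors IkappaB-alpha, IkappaB-beta and IkappaB-epsilon. LPS, through its receptor Tlr4, activates the IkappaB kinase complex, the inhibitors are degraded, and dimers such as those of RelA or c-Rel enter the nucleus and switch on inflammatory genes, including genes of their own inhibitors. A slower alternative branch, driven by receptors such as CD40, processes the Nfkb2 product p100 into p52, which pairs with RelB. A further group of IkappaB proteins, to which IkappaB-zeta and Bcl-3 belong, acts in the nucleus and modifies what the dimers do there. In bone marrow this system operates in macrophages, neutrophils, B cells and stroma.

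After LPS, 5 of the 9 members rose, namely Bcl3, Nfkbia, Nfkb2, Relb and Nfkbiz, by between 1.40-fold and 2.00-fold. The call was an adjusted p under 0.05 in limma, a linear model whose variances are moderated over all genes, with Benjamini-Hochberg adjustment over all 19938 genes. By the same call 476 genes rose, which is 2.39% of those tested. No member fell (0 of 9 in limma, also 0 at an unadjusted p under 0.05). Of all genes 254, or 1.27%, fell, so a count of 0 among 9 members is near the background. Without moderation 0 members and 0 genes fell. The median log2 fold change of the 9 members, LPS minus PBS, was 0.49, against -0.0081 for all genes tested. In 7 of the 9 the LPS arrays were both higher than either PBS array, as was so for 20.4% of all genes. Differences between members in the size of their change were not tested. In bulk marrow, a larger number of cells of a type and more RNA per cell cannot be told apart. With 2 arrays a group the smallest two-sided p of an exact permutation test is 0.333, so calls for single genes rest on the variances limma shares across genes. When all 35556 probe sets of the array were tested, Bcl3 was the 1 member that rose.

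**Figure D1:**
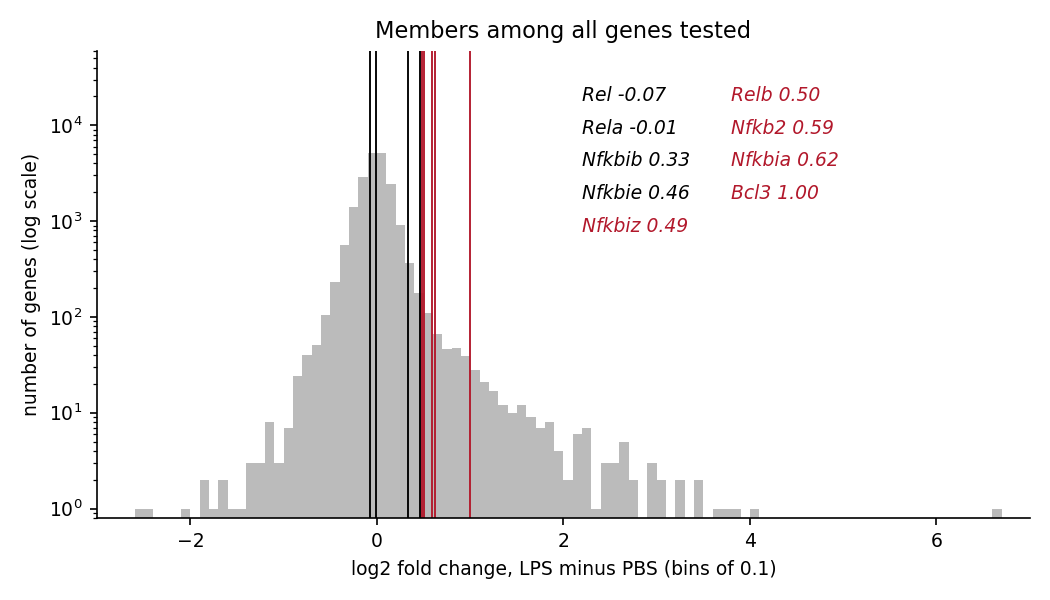
The number of genes (log scale) is plotted against the log2 fold change, LPS minus PBS, in bins of 0.1, over all 19938 genes tested, with a vertical line for each of the 9 members (red where the adjusted p was under 0.05). Bcl3 at 1.00 stands farthest to the right of the members, Nfkbia, Nfkb2, Relb, Nfkbiz and Nfkbie lie between 0.46 and 0.62, and Rel and Rela lie near the centre of all genes.

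The members that rose include genes known as targets of NF-kappaB itself, so the 250 bases before their transcript starts were searched for kappaB motifs. RefSeq windows of GRCm38.p6 were at hand for 7 of the 9 measured members, namely Nfkb2 (3 starts), Rel, Rela, Nfkbia, Nfkbib, Nfkbie and Bcl3. The motif was the 10-base kappaB consensus (3 G, a purine, any 2 bases, 2 pyrimidines, 2 C), read on both strands, with overlapping matches counted apart. It occurred in windows of 4 of the 7 members (6 of 9 windows), and in 2382 of all 32851 windows (7.25%). Rela, Nfkbib and Bcl3 had no match in theirs. More than 1 match of the consensus was found in 338 windows (1.03%), among them the first Nfkb2 window and the Rel window. A match describes these letters only and was not tested as a binding site. For each of the 4 genes with a match, 1 window is shown 5′ to 3′ in the direction of transcription, with matched bases in capitals, because 2 of these genes (Nfkb2 and Nfkbia) rose, Rel did not pass, and Nfkbie passed only with certain arrays left out.
Nfkb2: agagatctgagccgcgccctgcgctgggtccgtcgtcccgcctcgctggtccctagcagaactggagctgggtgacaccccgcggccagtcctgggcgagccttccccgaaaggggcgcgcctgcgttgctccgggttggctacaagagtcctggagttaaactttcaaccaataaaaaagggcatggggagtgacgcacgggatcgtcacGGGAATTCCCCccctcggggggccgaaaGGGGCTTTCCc
Nfkbia: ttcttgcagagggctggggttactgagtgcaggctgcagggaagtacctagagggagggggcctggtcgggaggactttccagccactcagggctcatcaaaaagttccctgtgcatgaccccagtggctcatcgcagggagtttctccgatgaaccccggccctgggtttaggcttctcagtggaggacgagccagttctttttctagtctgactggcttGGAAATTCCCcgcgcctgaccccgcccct
Nfkbie: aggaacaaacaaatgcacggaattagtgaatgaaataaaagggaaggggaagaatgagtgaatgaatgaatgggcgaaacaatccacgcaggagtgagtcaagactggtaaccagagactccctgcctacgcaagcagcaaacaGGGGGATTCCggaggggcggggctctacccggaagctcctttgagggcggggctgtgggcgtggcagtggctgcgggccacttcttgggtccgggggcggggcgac
Rel: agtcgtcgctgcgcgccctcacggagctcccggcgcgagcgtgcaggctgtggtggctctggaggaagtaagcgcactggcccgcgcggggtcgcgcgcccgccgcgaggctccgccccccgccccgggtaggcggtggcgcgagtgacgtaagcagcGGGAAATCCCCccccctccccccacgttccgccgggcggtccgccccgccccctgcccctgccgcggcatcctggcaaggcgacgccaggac
They lie at chr19:46304487-46304736 on the plus strand (Nfkb2, the first of its 3 windows), chr12:55492648-55492897 on the minus strand (Nfkbia), chr17:45555450-45555699 on the plus strand (Nfkbie) and chr11:23770970-23771219 on the minus strand (Rel). In Nfkb2 the matches begin 39, 38 and 11 bases before the transcript start, so 2 of the 3 overlap. Nfkbia has its match 29 bases before the start, reading GGAAATTCCC, and Nfkbie has GGGGGATTCC beginning 106 bases before it. In Rel 2 overlapping matches begin 92 and 91 bases before the start.

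Among the subunits, the members of the alternative branch rose and RelA and c-Rel did not pass. Nfkb2, which encodes p100 and its product p52, had log2 values of 9.90 and 10.10 on LPS replicates 1 and 2, against 9.50 and 9.33 on PBS replicates 1 and 3. Both LPS arrays were above both PBS arrays. It changed by 0.59 log2 (SE 0.11, 95% interval 0.33 to 0.84, limma adjusted p = 0.0304), and 1.90% of all genes had a larger rise. Without LPS replicate 2 the change was 0.49 and did not pass (adjusted p = 0.121).

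Relb, which encodes the partner of p52, had log2 values of 8.55 and 8.62 on the LPS arrays, against 8.16 and 8.00 on the PBS arrays. The groups did not overlap, and the LPS arrays lay closer together than the PBS arrays. Relb thus changed by 0.50 log2 (SE 0.0967, 95% interval 0.28 to 0.73), or 1.42-fold, and its limma adjusted p was 0.0335. The Relb call was lost on leaving out LPS replicate 1 (adjusted p = 0.0653), LPS replicate 2 (0.135) or PBS replicate 3 (0.0616), with the change between 0.42 and 0.58 over all alternatives.

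Rela encodes p65, the main activating subunit of the classical branch. Its log2 values were 10.36 and 10.42 on the LPS arrays and 10.56 and 10.24 on the PBS arrays, so both LPS arrays lay between the PBS arrays. The log2 fold change was -0.01 (95% interval -0.29 to 0.27, limma adjusted p = 0.986). The upper bound lay below the Nfkb2 and Relb estimates, though no test of the difference between the genes was made. Rel, which encodes c-Rel, a subunit prominent in lymphocytes and myeloid cells, had log2 values of 10.56 and 10.79 on the LPS arrays and 10.73 and 10.76 on the PBS arrays. The lowest and the highest Rel values were both on LPS arrays. Its log2 fold change was -0.07 (95% interval -0.31 to 0.17, limma adjusted p = 0.831), and 0.04 without LPS replicate 1.

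**Figure D2:**
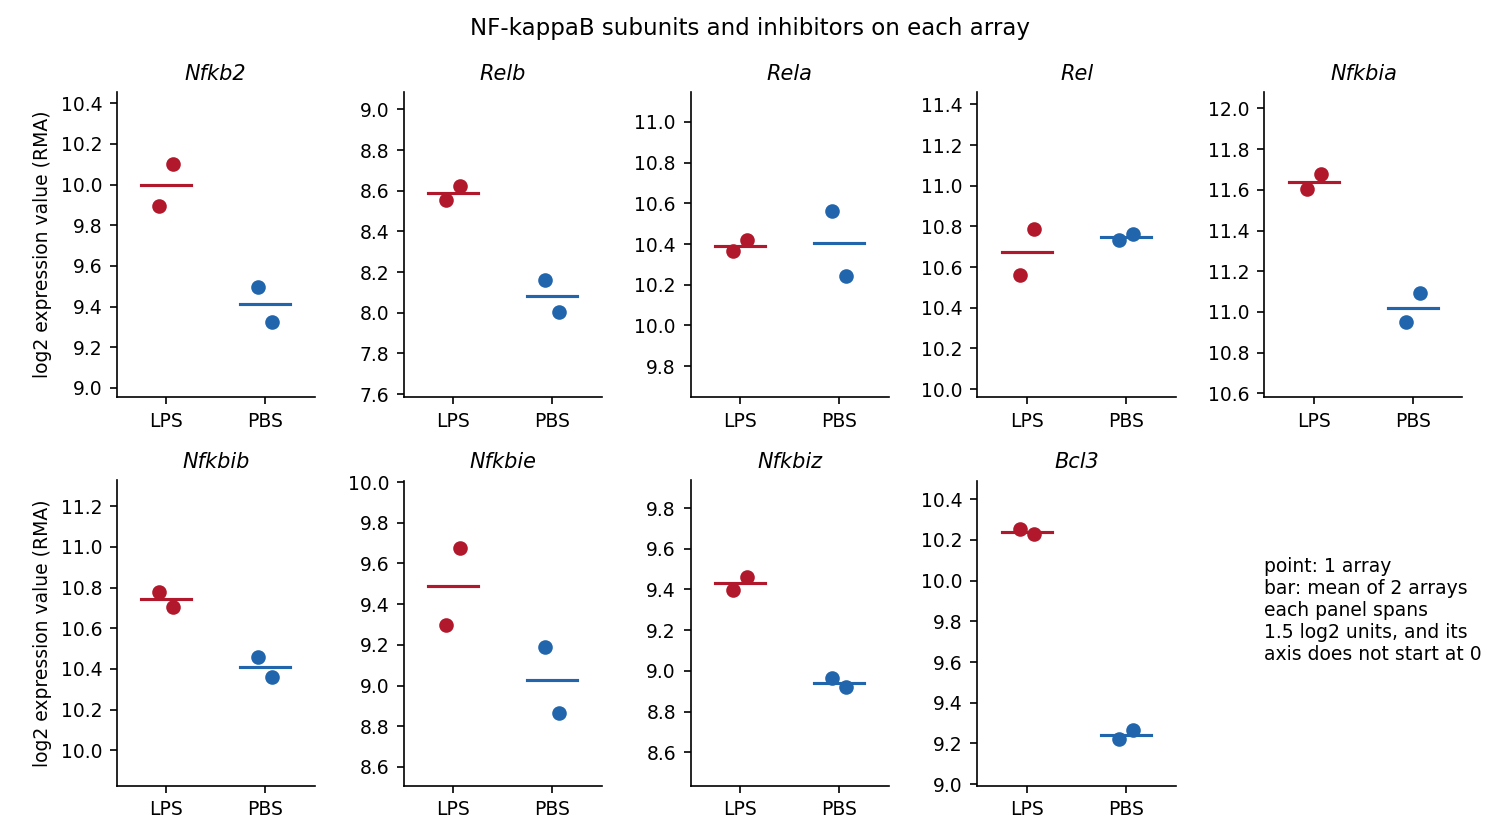
Each panel shows the log2 expression value of 1 member on the 2 LPS arrays (red, left) and the 2 PBS arrays (blue, right), with a bar at the group mean, and every panel spans 1.5 log2 units. LPS points lie above PBS points in 7 panels, with the widest gap in Bcl3 (0.96), and the points overlap in Rela and Rel.

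Of the inhibitors that hold dimers in the cytoplasm, Nfkbia rose and the other two had positive changes that did not pass. Nfkbia encodes IkappaB-alpha, the fast feedback inhibitor that is degraded and then made anew when the classical branch is active. Its log2 values were 11.60 and 11.68 on the LPS arrays and 10.95 and 11.09 on the PBS arrays. No array overlapped, with a gap of 0.51 between the nearest arrays of the groups. The change of 0.62 log2 (SE 0.0953, 95% interval 0.40 to 0.84), or 1.54-fold, had a limma adjusted p of 0.0129. Leaving out any 1 array kept the call, with an adjusted p of at most 0.0479 (without LPS replicate 2).

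Nfkbib encodes IkappaB-beta, an inhibitor with slower turnover. Log2 values of Nfkbib were 10.78 and 10.70 on the LPS arrays and 10.46 and 10.36 on the PBS arrays, again without overlap. Its change was 0.33 (SE 0.0914, 95% interval 0.12 to 0.55, 1.26-fold) with an unadjusted p of 0.0072 and a limma adjusted p of 0.115. It passed in 0 of the 11 alternatives tried.

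Nfkbie, the gene of IkappaB-epsilon, a delayed feedback inhibitor, varied most between arrays of a group. It had log2 values of 9.30 and 9.67 on LPS replicates 1 and 2, against 9.19 and 8.87 on PBS replicates 1 and 3. The groups stood only 0.11 apart at their nearest arrays, less than the 0.38 between the LPS arrays and the 0.32 between the PBS arrays. The difference of 0.46 log2 (SE 0.154, 95% interval 0.10 to 0.82) came with a limma adjusted p of 0.192. It passed without LPS replicate 1 (0.65, adjusted p = 0.0466) and without PBS replicate 1 (0.62, adjusted p = 0.0432), the arrays on which the groups came nearest to each other.

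Of the nuclear IkappaB genes, Bcl3 and Nfkbiz rose, while Nfkbid, which is not among the members, had a change of 0.02 (limma adjusted p = 0.972). Bcl3 encodes Bcl-3, which binds homodimers of p50 or p52 on DNA. Its log2 values were 10.25 and 10.23 on the LPS arrays and 9.22 and 9.27 on the PBS arrays. The arrays of each group lay within 0.05 of each other, and the groups were 0.96 apart. Bcl3 changed by 1.00 log2 (SE 0.0866, 95% interval 0.80 to 1.20), that is 2.00-fold, with a limma adjusted p of 0.000671. Of all genes, 0.863% had a larger rise. The adjusted p was at most 0.00094 when any 1 array was left out and 0.0109 when all probe sets of the array were tested.

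Nfkbiz encodes IkappaB-zeta, which is needed for a later set of LPS-induced genes such as Il6. On the LPS arrays Nfkbiz had log2 values of 9.40 and 9.46, against 8.96 and 8.92 on the PBS arrays, with no overlap. Its rise of 0.49 log2 (SE 0.0879, 95% interval 0.28 to 0.69), or 1.40-fold, had a limma adjusted p of 0.0262. The call was lost on leaving out either LPS replicate 1 (0.52, adjusted p = 0.0649) or LPS replicate 2 (0.46, adjusted p = 0.129).

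**Figure D3:**
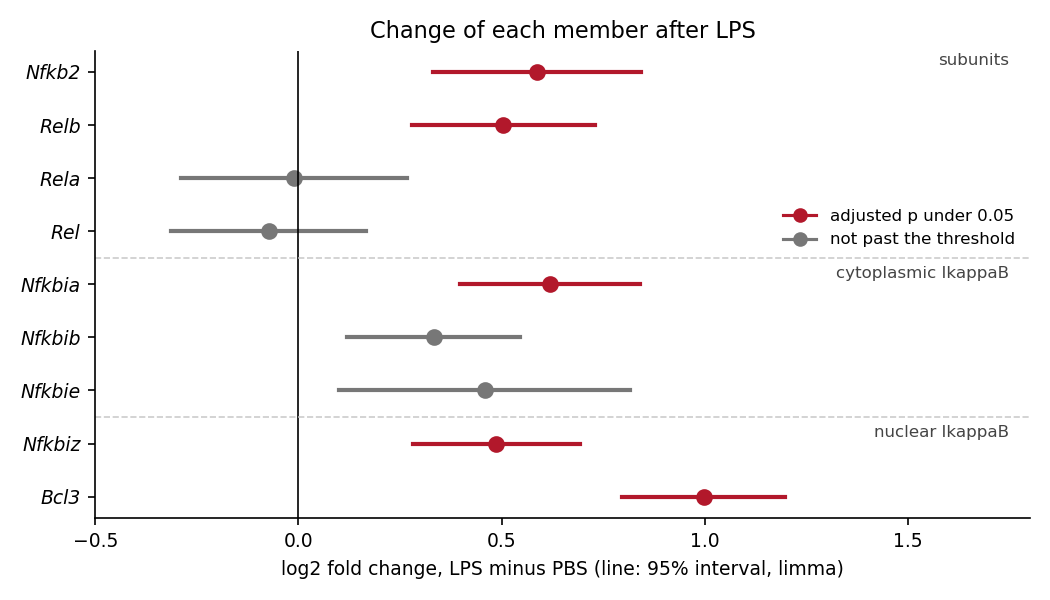
Points give the log2 fold change, LPS minus PBS, of each of the 9 members and lines its 95% interval from limma, grouped as subunits, cytoplasmic and nuclear inhibitors (red where the adjusted p was under 0.05). Bcl3 lies highest at 1.00 with an interval of 0.80 to 1.20, the other members that rose lie between 0.49 and 0.62, and the intervals of Rela and Rel cross 0.

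The LPS arrays did not always stand in the same order. LPS replicate 2 was above LPS replicate 1 by 0.38 log2 for Nfkbie, 0.22 for Rel and 0.20 for Nfkb2, by 0.06 to 0.07 for Rela, Relb, Nfkbia and Nfkbiz, and below it for Nfkbib and Bcl3. B-cell markers also differed between the LPS arrays: the mean log2 value of 11 measured B-cell markers was 9.86 on LPS replicate 1 and 10.19 on LPS replicate 2, against 10.38 and 10.40 on PBS replicates 1 and 3. In that list 2 genes fell, Fcer2a (-1.61) and Cr2 (-0.75), beside 1.27% of all genes, but only 1 when all probe sets were tested. Their part in the Rel, Nfkb2 and Nfkbie values was not tested. With 1 array left out, the number of members that rose was between 2 (without LPS replicate 2, Nfkbia and Bcl3) and 6 (without PBS replicate 1, where Nfkbie passed as well).

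The genes whose values over the 4 arrays, as deviations from their own PBS mean, lay nearest to each member that rose were Trim21 for Bcl3 (Euclidean distance 0.0217 log2), Ddit3 for Relb (0.0188), Calhm5 for Nfkbia (0.0348), Fbxo39 for Nfkbiz (0.0402) and Aen for Nfkb2 (0.0761). Trim21, an interferon-inducible ubiquitin ligase and antibody receptor, had log2 values of 10.62 and 10.62 on the LPS arrays and 9.59 and 9.63 on the PBS arrays. With 4 arrays in 2 groups such likeness is a description and says little beyond an alike change.

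Upstream of the subunits, of 12 kinases and adaptors around the IkappaB kinase complex 2 rose and 0 fell, beside 2.39% and 1.27% of all genes, with a median log2 fold change of -0.0239. They were Ikbke (0.86, SE 0.0882, limma adjusted p = 0.00163), an IkappaB kinase relative that acts mainly in interferon induction, and Map3k8 (0.49, SE 0.0878, adjusted p = 0.0252), which encodes the kinase Tpl2 held by the Nfkb1 product. Ikbke had log2 values of 10.19 and 10.19 on the LPS arrays and 9.28 and 9.37 on the PBS arrays. The Map3k8 call was lost when LPS replicate 1 (adjusted p = 0.0798), LPS replicate 2 (0.106) or PBS replicate 1 (0.0509) was left out, or when all probe sets were tested (0.0995). The catalytic subunit gene Ikbkb had a change of -0.18 and the regulatory subunit gene Ikbkg one of 0.07. The other catalytic subunit gene, Chuk, was listed but not analysed here. Map3k14, which encodes the kinase that starts the alternative branch, had -0.11. None of Ikbkb, Ikbkg and Map3k14 passed.

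Among 13 TRAF, cIAP and ubiquitin-chain genes, 1 rose and 0 fell, with a median of 0.10 (2 rose without PBS replicate 1). This was Traf1, an adaptor and known NF-kappaB target, with log2 values of 7.24 and 7.41 on the LPS arrays and 6.58 and 6.60 on the PBS arrays (0.73, SE 0.0955, limma adjusted p = 0.00537). Of the 9 A20, ABIN and CYLD genes, which remove or block ubiquitin signals, 3 rose and 0 fell, with a median of 0.0539. Of all genes 2.39% rose and 1.27% fell, so 0 falls in either list is near the background. Tnfaip3, which encodes the deubiquitinating enzyme A20, rose by 0.89 (SE 0.11, adjusted p = 0.00427), with 9.46 and 9.73 on the LPS arrays and 8.74 and 8.67 on the PBS arrays. Its partner genes Tnip3 (2.61) and Tnip1 (0.66, SE 0.0996, adjusted p = 0.011) rose too, Tnip1 not when all probe sets were tested (0.0711), while Cyld had 0.05 and did not pass.

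The lists of degradation machinery and of other nuclear cofactors held few genes, and with 2.39% of all genes rising and 1.27% falling a count of 0 in them is near the background. Of 6 genes of the ubiquitin ligase that recognises IkappaB, 0 passed in limma and the changes ran from -0.18 (Btrc) to 0.11 (Rbx1). Of 14 other IkappaB-related genes and cofactors 0 passed, with changes between -0.19 (Ep300) and 0.14 and with -0.17 for Crebbp. Those 14 included Nfkbid, given above.

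Receptors that feed the alternative branch held 3 rises and 0 falls among 8, with a median of 0.19. Of all genes 2.39% rose and 1.27% fell, so 0 falls among 8 is near the background. Cd40 rose by 1.06 (SE 0.144, limma adjusted p = 0.00658), with log2 values of 10.12 and 10.57 on the LPS arrays and 9.30 and 9.26 on the PBS arrays. Tnfrsf11a, the receptor of RANKL, rose by 0.66 (SE 0.0902, adjusted p = 0.00714). Tnfrsf1b, a receptor of tumour necrosis factor, rose by 0.52 (SE 0.1, adjusted p = 0.0339), a call lost when LPS replicate 2 was left out (0.42, adjusted p = 0.174). When all probe sets were tested, 1 of the 8 rose (Tnfrsf11a, limma adjusted p = 0.0499), and Cd40 (adjusted p = 0.0649) and Tnfrsf1b (0.134) did not pass. Ltbr (0.18) and Tnfrsf13c (-0.11), which encodes a receptor of the TNF receptor family on B cells, did not pass.

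Among the pathway lists, classical target genes carried the largest changes. Of 23 measured, 15 rose and 1 fell, beside 2.39% and 1.27% of all genes, with a median of 0.85. When all probe sets were tested, 12 rose and 1 fell. The changes of 19 were positive and those of 4 negative. Besides the gene that fell, Il1b (-0.42), Bcl2l1 (-0.08) and Cd83 (-0.05) had negative changes, which did not pass. Chemokine genes led, with Cxcl10 at 3.76 (SE 0.128), Ccl2 at 3.69 (SE 0.156) and Ccl5 at 2.29 (SE 0.116), all with limma adjusted p-values of at most 4.79e-05. Cxcl10 is also an interferon target. The 1 fall was that of the adhesion gene Vcam1 (-0.79, SE 0.0912, adjusted p = 0.00309). Without PBS replicate 3, 2 of the 23 fell. Of 8 genes known to depend on IkappaB-zeta, 3 rose and 0 fell, with a median of 0.26. They were Tnip3, Il6 (1.46, with a mean log2 value of 6.48 in the LPS group and 5.02 in the PBS group) and Hp, the haptoglobin gene (0.80, SE 0.104, adjusted p = 0.00531). Both Il6 groups lay below the lower quartile of all genes (6.66 to 6.72 per array), where no background level was available, so the size of that change is uncertain, and so are those of Tnip3 and Traf1, whose PBS arrays lay there.

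Among 5 genes linked to the alternative branch in stroma, 2 rose and 0 fell with all arrays, and 1 fell without LPS replicate 1 or without PBS replicate 3. The lymphoid chemokine genes Cxcl13 and Ccl19 rose by 2.97 (SE 0.131, limma adjusted p = 2.54e-05) and 2.10 (SE 0.131, adjusted p = 0.000114). Ccl19 had log2 values of 10.84 and 11.07 on the LPS arrays and 8.70 and 9.01 on the PBS arrays. The list's median was nevertheless -0.10, since Cxcl12 (-0.10), Madcam1 (-0.14) and Tnfsf13b (-0.59) had negative changes that did not pass. Over all pathway lists together, 27 of 96 measured genes rose and 1 fell, with a median of 0.11. Of all genes, 2.39% rose and 1.27% fell. The number of list genes that fell depended on which array was left out. When all probe sets were tested, 20 of the 96 rose and 1 fell. The lists were written with earlier results of these data known, so these counts do not test the pathway.

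**Figure D4:**
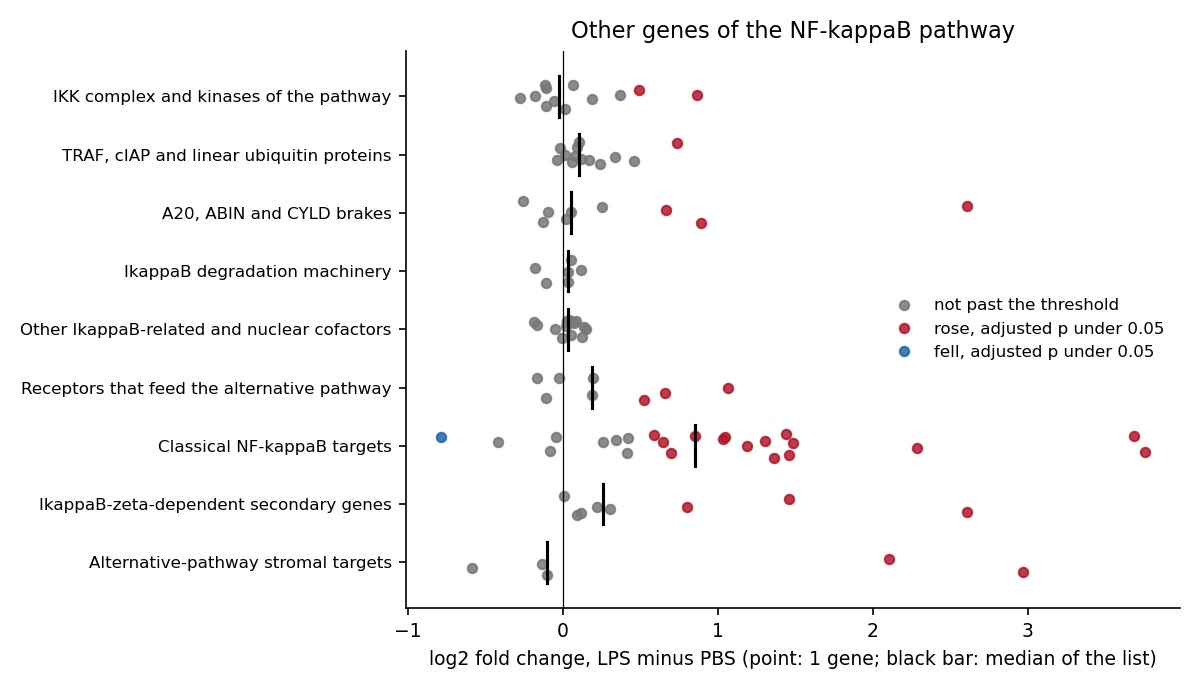
Each point is the log2 fold change, LPS minus PBS, of 1 gene in 9 lists of other NF-kappaB pathway genes, with a black bar at each list's median (red rose, blue fell, grey did not pass). The classical targets spread to the right up to 3.76 with a median of 0.85, whereas the medians of the lists of kinases, degradation machinery and cofactors lie between -0.0239 and 0.0314.

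Several cell type markers moved between the groups along with the members. Of all genes 2.39% rose and 1.27% fell, so a count of 0 in lists of this size is near the background. The mean log2 value of 8 monocyte and macrophage markers was 10.41 and 10.31 on the LPS arrays and 9.79 and 9.94 on the PBS arrays. In that list Vcan (2.26), Fcgr1 (1.57) and Adgre1 (0.56) rose, and the other 5 did not pass, with 0.11 for Csf1r, -0.03 for Cd68, -0.04 for F13a1, -0.09 for Ccr2 and -0.32 for Cx3cr1, whose LPS arrays were both below the PBS arrays. The median change of the 8 was 0.0447, with 4 positive and 4 negative. Neutrophil markers (12 genes) averaged 12.48 and 12.28 on the LPS arrays and 12.74 and 12.62 on the PBS arrays, with 1 fall, that of Ly6g (-1.14). Erythroid markers (6 genes) averaged 11.37 and 11.45, against 11.76 and 11.53 on the PBS arrays, and T-cell markers (8 genes) 8.45 and 8.37, against 8.59 and 8.55 on the PBS arrays, with 0 of each past the threshold in limma. Natural killer markers (8 genes) averaged 7.91 and 7.72 on the LPS arrays and 7.70 and 7.85 on the PBS arrays, with 2 rises and 2 falls. Dendritic cell markers (8 genes, 1 rise and 1 fall) averaged 8.43 and 8.39 on the LPS arrays and 8.60 and 8.60 on the PBS arrays. Endothelial and stromal markers (8 genes, 2 falls) averaged 9.84 and 9.81 on the LPS arrays and 9.79 and 10.05 on the PBS arrays. The falls were those of Tek (-0.89) and Lepr (-0.59), while 5 of the 8 changes were positive. Col1a1 was at 11.99 on PBS replicate 1 and 13.33 on PBS replicate 3, so these PBS means rest partly on that gene. Without LPS replicate 1, 2 neutrophil, 1 T-cell, 2 dendritic and 1 endothelial or stromal marker fell and 1 natural killer marker rose. Without PBS replicate 3, 3 neutrophil, 1 erythroid and 1 monocyte marker fell, and 1 natural killer and 1 endothelial or stromal marker rose. When all probe sets were tested, 2 monocyte and macrophage markers rose, and 0 neutrophil and 1 endothelial or stromal marker fell. Of the natural killer markers, 0 rose and 1 fell there. Of the markers that define marrow cells, the neutrophil gene S100a8 was at 13.32 or above, the B-cell gene Cd79a at 11.75 or above and the erythroid gene Slc4a1 at 12.88 or above on every array. The part of these shifts in the members' changes was not tested.

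As for the arrays themselves, their medians over genes were 8.01 to 8.03 log2. Across genes, which are not independent replicates, arrays of a group correlated at 0.995 and 0.997 and arrays of different groups at 0.988 to 0.990.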

How the data were processed

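RNA of bone marrow cells was measured on 4 arrays, 2 per group. The authors deposited log2 values, 1 per probe set, from RMA (per the submitters' processing notes), a method that corrects background, normalizes quantiles and summarises probes. The RMA version and the probe definitions the authors used with it are not stated in the sources at hand. Genes were named through GEO's platform annotation: of 35556 probe sets, 21789 carried a single symbol and were used, 1621 carried several, and 12146 are unnamed here. The brightest probe set over the 4 arrays stood for a gene. LPS and PBS were compared with limma 3.58.1 (R 4.3.3, lmFit and eBayes, two-sided) in 1 fit without covariates, with 2 residual and 5.59 prior degrees of freedom and no filter on low values. The number of arrays limits the precision. The fit was also run on simulated data drawn from limma's own variance model, which does not test that model. The changes put into those data were larger than that of any member, so they do not show how well changes of most members' size are found.

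The members, the pathway and cell type lists, and the alternatives were chosen with earlier results of these data known. Named genes were the members, up to 3 rising and 3 falling genes of each pathway list (the 2 largest changes where none passed), the nearest gene of each member that rose, and, chosen after their values were seen, further genes of these lists given as examples. Promoter windows and their coordinates are RefSeq's, of GRCm38.p6. Alternatives left out 1 array, or changed the probe sets, filter, moderation, scaling or threshold. Those for the lists were added after seeing the data.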

Additional observations from a re-analysis of the deposited data

How the results depend on the processing

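No paired analysis was possible, since the labels name no pairs and the groups share only replicate number 1. Direction was kept for the 7 members with positive changes under all 11 alternatives. Little could have changed it, since their LPS arrays all lay above their PBS arrays and each had a single probe set. Calls depended on the setting. With 1 array left out (a lone array was taken to vary like the other group's), members that rose numbered 2 to 6, genes that rose 385 to 696 and genes that fell 127 to 423. When all probe sets were tested, 1 member rose (Bcl3), and 355 probe sets rose and 63 fell of 35556. There Nfkbia had an adjusted p of 0.0728, Nfkbiz 0.101, Relb 0.131 and Nfkb2 0.133. Without moderation 0 members and 0 genes rose and 0 fell, though 6 members and 2185 genes had an unadjusted p under 0.05, against 7 members and 3149 genes in limma. At an adjusted p under 0.01, 1 member rose (Bcl3), 286 genes rose and 58 fell. The mean of a gene's probe sets, a filter at the lower quartile, trend with robust eBayes and median centring each kept 5 members. The mean and the filter could not alter the members' own values, since each member had a single probe set above that quartile. Of 99 member values under alternatives, 19 lost and 2 gained a call. The median log2 fold change of the members stayed between 0.42 and 0.55. Probe sets near background limit what low genes can show, and the members themselves all lay above the lower quartile.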
